A study of Mus musculus with 8 samples.

Results

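Ppif, Zwint, Ppm1e and C5ar2 are 4 mouse genes whose annotated 3' untranslated regions (3' UTRs) hold seed matches of miR-23, miR-27 or miR-24. They were picked because their transcripts were clearly higher in macrophages made to lose these miRNAs, so their fold changes describe how they were chosen and are given with no test. All 4 had a row and an adjusted p-value in the deposited comparison, out of 15853 genes listed and 14619 with an adjusted p-value.

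The cells were primary bone marrow-derived macrophages. Knockout (KO) cells were Mirc11 fl/fl, Mirc22 fl/fl and Lyz2 Cre/Cre, and control (fl/fl) cells were Mirc11 fl/fl, Mirc22 fl/fl and Lyz2 +/+, with 4 libraries per genotype. All cells were grown for 7 days in L929 conditioned medium, which supplies a macrophage growth factor, and then held for 24 h with 10 nM insulin, 25 mM glucose and 250 uM C16:0, the saturated fatty acid palmitate. Poly(A) RNA was sequenced, which does not capture mature miRNAs, so loss of the miRNAs was not measured here. The floxed alleles were present in all 8 libraries. The KO cells alone carried Cre, which sits in Lyz2 and is active in myeloid cells, so effects of the deleted clusters, of Cre and of the loss of Lyz2 cannot be told apart. The design text speaks of biological replicates, and the sources used here do not tie libraries to animals. P-values therefore reflect the spread of these libraries, some of which may be technical.

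MicroRNAs guide Argonaute proteins to messenger RNAs, mostly by pairing their seed, bases 2 to 8, with a site in the 3' UTR, and such pairing lowers the stability or translation of the message. The Mirc11 cluster on chromosome 8 holds miR-23a, miR-27a and miR-24-2, and the Mirc22 cluster on chromosome 13 holds miR-23b, miR-27b and miR-24-1. The paired clusters thus give rise to miRNAs with shared seeds, so a target of one cluster can also pair with the other.

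The mature sequences are shown because every site described here is defined by their seeds. They come from RefSeq (GRCm38.p6), are written 5' to 3', and have the seed in capitals. miR-23b-3p is named only.
miR-23a-3p: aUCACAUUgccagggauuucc
miR-27a-3p: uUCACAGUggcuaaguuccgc
miR-27b-3p: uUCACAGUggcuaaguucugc
miR-24-3p: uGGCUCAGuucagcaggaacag

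miR-27a-3p and miR-27b-3p share 1 seed. A 7-nucleotide match was AATGTGA for miR-23, ACTGTGA for miR-27 and CTGAGCC for miR-24, read on the transcript's strand alone, and an 8-nucleotide match had an A after it. Among the longest 3' UTRs of 13074 tested genes, 16.7% held at least 1 match of miR-23, 17.4% of miR-27 and 19.2% of miR-24. Presence of a match is thus common, and it was also part of how the genes were picked.

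The longest 3' UTRs of the 4 genes held 8 matches in all, of which 3 were 8-nucleotide matches. Each match stands in capitals at the 3' end of a window of 30 bases, which also shows the sequence that the rest of the miRNA would face. The windows were read from GENCODE M21 transcripts (GRCm38, the assembly of mm10), and a base in lower case after the capitals is one that is not A.
Ppif, miR-27, chr14:25700149-25700178, plus strand: gtcaatgccttccctcctggtcACTGTGAA
Ppif, miR-23, chr14:25700247-25700276, plus strand: tgtgagcccggtctttctgctcAATGTGAA
Ppif, miR-23, chr14:25700415-25700444, plus strand: acagtcctgtgtgttcatctcaAATGTGAt
Zwint, miR-24, chr10:72668182-72668211, plus strand: gcaaaaagccatagcgtgaggaCTGAGCCc
Zwint, miR-27, chr10:72669248-72669277, plus strand: tgtgagagttagcctgccaaggACTGTGAg
Zwint, miR-24, chr10:72669406-72669435, plus strand: tacatttctgtttgataattatCTGAGCCc
Ppm1e, miR-27, chr11:87228087-87228116, minus strand: gattactactccttgtacattcACTGTGAg
C5ar2, miR-24, chr7:16236150-16236179, minus strand: caccctgaacaacgggtaatgaCTGAGCCA

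Zwint has a second annotated 3' end, and its shorter 3' UTR carries a different pair of matches. They are shown because they bring a miR-23 match to the gene and lie next to each other.
Zwint-201, miR-23, chr10:72674790-72674819, plus strand: aacttgagtctattgaatccagAATGTGAA
Zwint-201, miR-27, chr10:72674812-72674841, plus strand: aatgtgaatccatgcctttgtgACTGTGAc

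**Figure D1:**
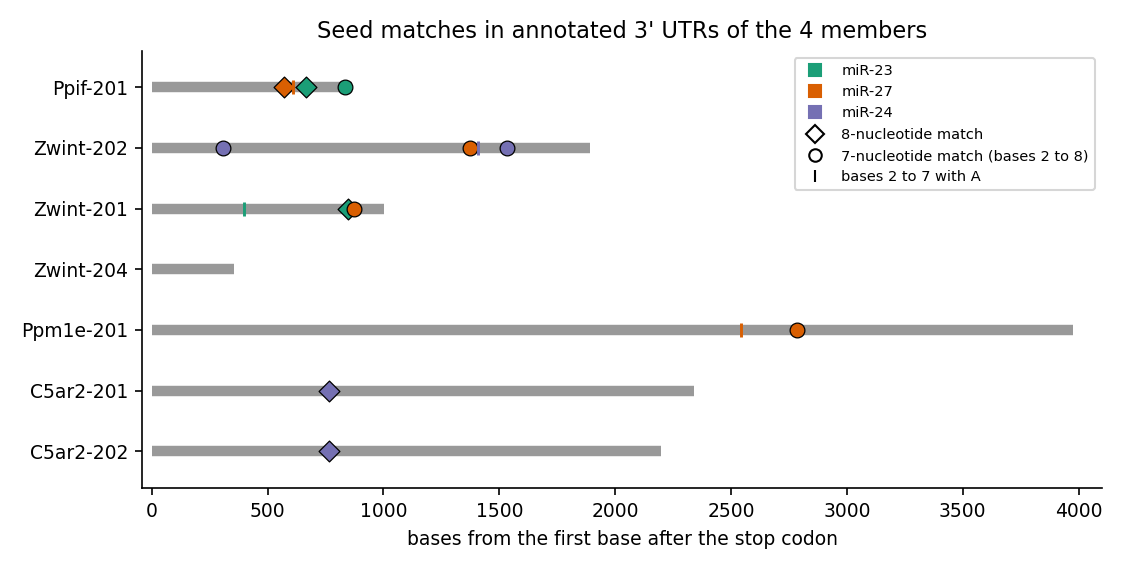
Seed matches along the annotated 3' UTRs of the 4 genes, 1 row per protein-coding transcript; the x axis gives bases from the first base after the stop codon, diamonds are 8-nucleotide matches, circles 7-nucleotide matches and ticks matches of bases 2 to 7 with an A. Ppif has its matches in the last part of an 866-base UTR, Ppm1e has 1 match of bases 2 to 8 in 3974 bases, and Zwint-204 has none.

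In Ppif (ENSMUSG00000021868.7; chromosome 14, 25694154 to 25700468, plus strand) all 3 matches lie in exon 6, in a 3' UTR of 866 bases. The 8-nucleotide matches start at base 569 of the UTR (miR-27) and at base 667 (miR-23), 98 bases apart, and the 7-nucleotide miR-23 match starts at base 835, 25 bases from the annotated end. The density was 3.46 matches per kb, against 0.40 per kb over the UTRs of all tested genes, a value raised by the choice of genes with a match. The 8-nucleotide matches lay in sequence poor in A and U. Within 30 bases on each side, 45.0% of bases were A or U around the miR-27 match, against a median of 55% over 2771 miR-27 matches in tested genes. The share was 46.7% around the 8-nucleotide miR-23 match, against a median of 61.7% over 2736 miR-23 matches, and both lay below the lower quartiles of 48.3% and 53.3%. Around the last miR-23 match 68.5% of the 54 flanking bases within the UTR were A or U. An annotated antisense gene, Ppifos, overlaps Ppif. The sources used here do not say whether strand was used in counting, so reads of Ppif and Ppifos cannot be told apart.

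In Zwint (ENSMUSG00000019923.14; chromosome 10, 72654845 to 72674964, plus strand) the transcript with the longest 3' UTR, Zwint-202, has 1893 bases of UTR. It has 7-nucleotide miR-24 matches starting at bases 308 and 1532 and a 7-nucleotide miR-27 match starting at base 1374, all in exon 8 and with no 8-nucleotide match. Zwint-201 ends in another exon 8 further along the chromosome, and its UTR of 1001 bases has an 8-nucleotide miR-23 match and a 7-nucleotide miR-27 match that start 22 bases apart. Another transcript, Zwint-204, has a UTR of 356 bases with no match. Counted over its 3 transcripts, Zwint has 5 distinct matches and is the only one of the 4 genes with matches for all 3 miRNAs. The deposited comparison has 1 value per gene, so it does not show which 3' end was in use.

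In Ppm1e (ENSMUSG00000046442.4; chromosome 11, 87226906 to 87359023, minus strand) 1 match of bases 2 to 8, a 7-nucleotide miR-27 match in exon 7, starts at base 2786 of a 3974-base UTR. That is 0.25 matches per kb, below the 0.40 per kb of all tested genes. In C5ar2 (ENSMUSG00000074361.10; chromosome 7, 16234585 to 16244154, minus strand) the single 8-nucleotide miR-24 match lies in exon 2 and starts at base 767 of a 2339-base UTR, and the second transcript, with a UTR of 2198 bases, holds it too. Matches of bases 2 to 7 with an A, a weaker kind, numbered 1 each in the longest UTRs of Ppif, Zwint and Ppm1e and 0 in C5ar2. None of the 4 longest UTRs held a match of miR-155 (AGCATTA), which 9.25% of tested genes' UTRs hold. Pairing beyond the seed was short: the longest run of Watson-Crick pairs that miRNA bases 12 onward could form within the shown windows was 2 to 5 bases in the longest UTRs, with 5 for the second miR-24 match of Zwint. Runs of 5 or more occurred at 16.7% of all miR-24 matches in tested genes.

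The direction of the deposited comparison was read from Lyz2, since its header names no numerator. Lyz2, which encodes lysozyme M and carries Cre on both copies in KO cells, stood at -9.10 (SE 0.42) on the log2 scale by the authors' deposited table, so a value below 0 was read as lower in KO. Single-library values were left out, because their column names fit no single sample label. Group means below were derived from the authors' mean over all libraries and their fold change, and carry no spread of their own. In bulk RNA, a change in the number of cells of a kind and a change in RNA per cell cannot be told apart. Without columns that match the labels, the depth of the libraries, the spread of each gene within a group and the genes most alike across libraries are not given.

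Ppif encodes cyclophilin D, a prolyl isomerase of the mitochondrial matrix that promotes opening of the permeability transition pore. Its derived mean normalized count was 1131 in KO cells and 517 in fl/fl cells. The authors' deposited table gave it a log2 fold change of 1.13 (SE 0.08), a 2.19-fold difference with a range of 2.07 to 2.32 at 1 SE to each side.

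Zwint encodes a kinetochore protein that binds Knl1 and helps to bring Zw10 to kinetochores. Its derived mean normalized count was 10782 in KO cells and 5349.8 in fl/fl cells. The authors' deposited table gave it a log2 fold change of 1.01 (SE 0.06), or 2.02-fold with a range of 1.93 to 2.10 at 1 SE.

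Ppm1e encodes a serine/threonine phosphatase of the PP2C family, also called POPX1, that removes activating phosphates from PAK kinases and has AMPK and calmodulin-dependent kinases among its substrates. Its derived mean normalized count was 705 in KO cells and 167 in fl/fl cells. The authors' deposited table gave it a log2 fold change of 2.08 (SE 0.13), or 4.22-fold with a range of 3.85 to 4.63 at 1 SE. Its fold change was the largest of the 4 genes, and its SE was also the largest.

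C5ar2 encodes the second receptor of the complement fragment C5a, which binds arrestins and does not couple to G proteins as C5ar1 does. Its derived mean normalized count was 2773 in KO cells and 1331 in fl/fl cells. The authors' deposited table gave it a log2 fold change of 1.06 (SE 0.06), or 2.08-fold with a range of 2.00 to 2.17 at 1 SE. Ppif, Zwint and C5ar2 thus had fold changes close to each other, below that of Ppm1e.

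**Figure D2:**
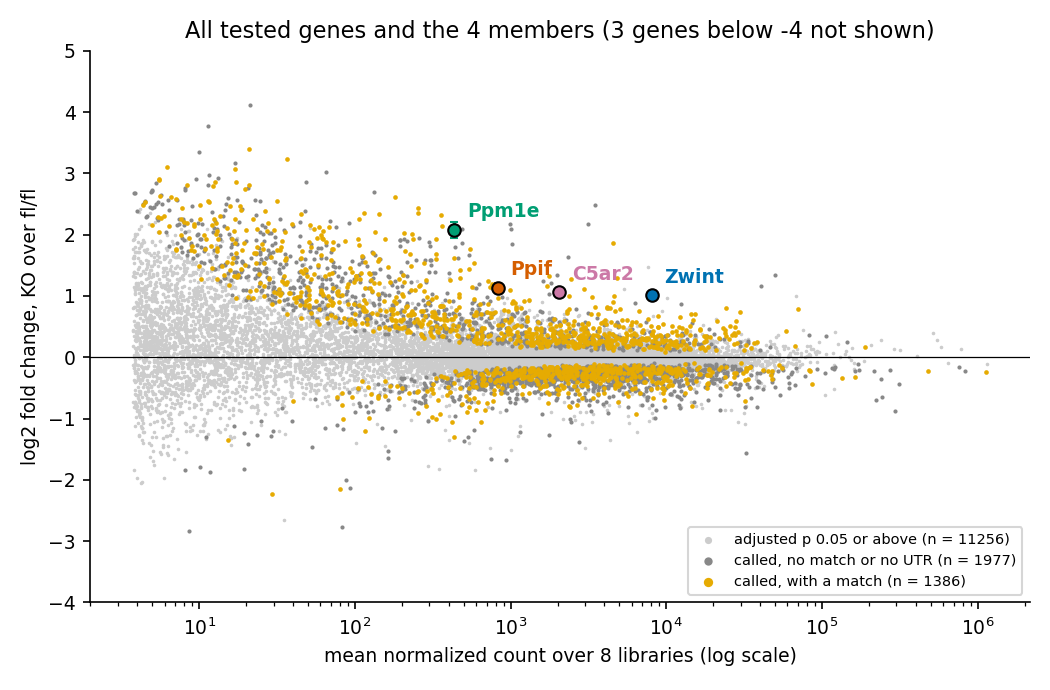
Log2 fold change, KO over fl/fl, against the mean normalized count over 8 libraries (log scale) for all genes with an adjusted p-value; gold points are called genes with a seed match, bars on the 4 named genes are the SE, and the 3 lowest genes are off the plot. Ppif, Zwint and C5ar2 lie near a log2 fold change of 1 and Ppm1e lies at 2.08.

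All 4 genes passed an adjusted p under 0.05 as higher in KO, where 11.3% of all tested genes did, and all 4 were both called and at least 2-fold higher, as were 4.08% of all tested genes. The choice of the genes fixed these counts, so nothing is read from them. Ordered by fold change over SE, the 4 came first among the 844 genes with a match that were called higher, from 18.2 for C5ar2 to 13.9 for Ppif. The gene just outside was Sesn2, an inhibitor of mTORC1 with matches for each of the 3 miRNAs, at 13.8 and with 0.90 (SE 0.07) on the log2 scale by the authors' deposited table. By fold change alone they stood lower: among 5341 tested genes with a match, Ppm1e was number 65, Ppif 311, C5ar2 351 and Zwint 371. Of the 252 genes with a match that were called and at least 2-fold higher, 22 had a mean normalized count at or above that of Ppm1e, and 8 had an SE no larger than its 0.13. Their median count, which bears on precision and not on level per length, was 44.9 and their median SE 0.37. The small errors of the 4 genes were part of how they were picked.

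Genes were next grouped by the exact set of miRNAs matched in the longest 3' UTR, to show what genes like each of the 4 did. Of 411 genes with matches of miR-23 and miR-27 and none of miR-24, the group of Ppif, 20.9% were called higher and 5.60% lower. Of 422 genes with miR-27 and miR-24 matches, the group of Zwint, 20.1% were called higher and 9.24% lower. Zwint is in that group by its longest UTR alone. By the UTR of Zwint-201 it would join the group of Ppif, and by that of Zwint-204 the genes with no match. With miR-27 matches alone, as in Ppm1e, 16.6% of 1229 genes were called higher and 10.0% lower. With miR-24 matches alone, as in C5ar2, 11.6% of 1509 genes were called higher and 13.7% lower, close to the 11.3% and 11.7% of all tested genes. Calls lower outnumbered calls higher in the group of C5ar2 as deposited, and the order turned with scaling. Centred on the median of genes with a mean of at least 100, 14.2% of that group were called higher and 9.94% lower, and centred on the summed group means 17.0% and 7.49%. The order turned in the same way over all 14619 tested genes. There, 1990 were called higher and 1230 lower under the first centring, and 2339 and 960 under the second. Genes with no match stood at 11.5% higher and 10.4% lower, and at 13.8% and 8.24%. The groups of Ppif, Zwint and Ppm1e had more calls higher than lower under both centrings too.

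**Figure D3:**
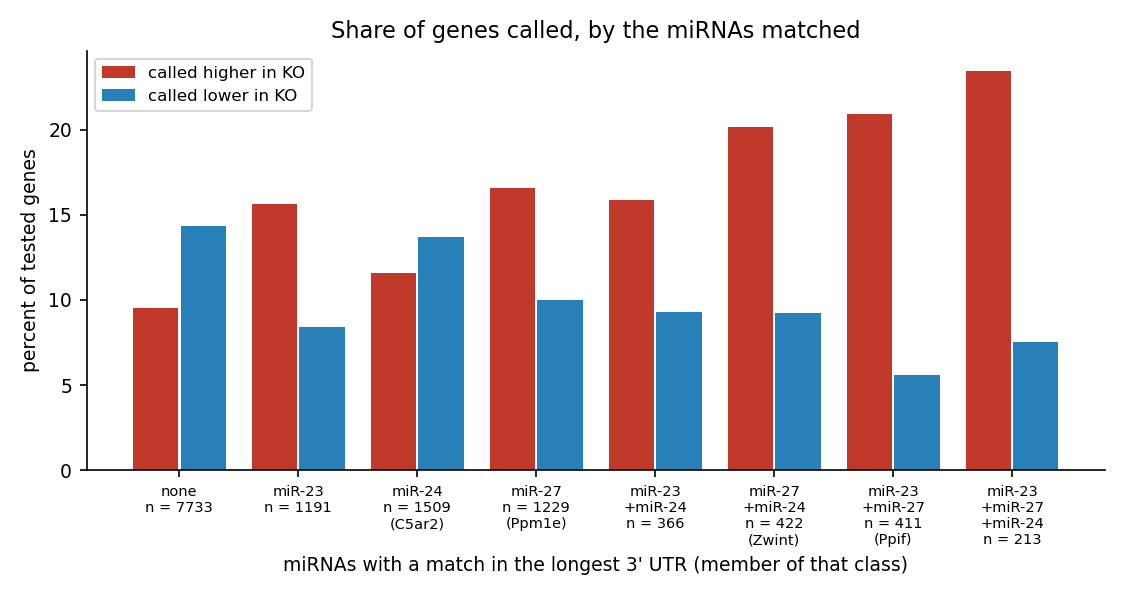
Percent of tested genes called higher (red) or lower (blue) in KO at an adjusted p under 0.05, by the set of miRNAs matched in the longest 3' UTR, with the number of genes and the named gene of each set below. Genes with no match were called higher in 9.52% and lower in 14.4%, an order that turned to 11.5% and 10.4% with centring on the median, and genes with matches for all 3 miRNAs in 23.5% and 7.51%.

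The typical change within these groups is given next. That the 4 genes lay above it was fixed by how they were picked, so nothing is read from that. The median log2 fold change was 0.10 in the group of Ppif, 0.07 in that of Zwint, 0.04 in that of Ppm1e and -0.01 in that of C5ar2, against -0.00403 for all tested genes. The value for the group of C5ar2 turned to 0.02 with centring on the median and to 0.05 on the summed group means. Centring moves every gene alike, and the median of all tested genes went to 0.03 and 0.06. Calls at least 2-fold higher made up 6.81%, 6.87%, 4.72% and 3.31% of the 4 groups in the same order. UTR length differed between the groups, with medians of 3111, 2744.5, 1780 and 1766 bases against 713 for genes with no match. The UTR of Ppif, at 866 bases, was shorter than its group's median. The part of UTR length in these shares was not tested.

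The nearest tested genes were examined next, since they share a stretch of chromosome with the 4 genes. The 2 nearest on each side of each gene, 16 in all, included 0 called by DESeq2, and 1 of them, Rab36, had an unadjusted p under 0.05, where 23.0% of all tested genes were called in either direction. C5ar1, which encodes the G protein-coupled C5a receptor and lies 2.59 kb from C5ar2, has a miR-23 match. It stood at -0.11 on the log2 scale (SE 0.16, adjusted p = 0.687 by DESeq2) by the authors' deposited table. Zcchc24, 11.2 kb from Ppif, was at 0.05 (SE 0.13), and Trim37, 6.22 kb from Ppm1e and on the other strand, at 0.10 (SE 0.12) by the authors' deposited table. The nearest tested genes to Zwint lie at least 1222 kb away, among them Ipmk at 0.02 (SE 0.07) and the lowly expressed Rab36 at 1.08 (SE 0.50, adjusted p = 0.0981 by DESeq2) by the authors' deposited table. Precision was low for Rab36, Gnaz and Tex14, with SEs of 0.50, 1.02 and 0.61.

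**Figure D4:**
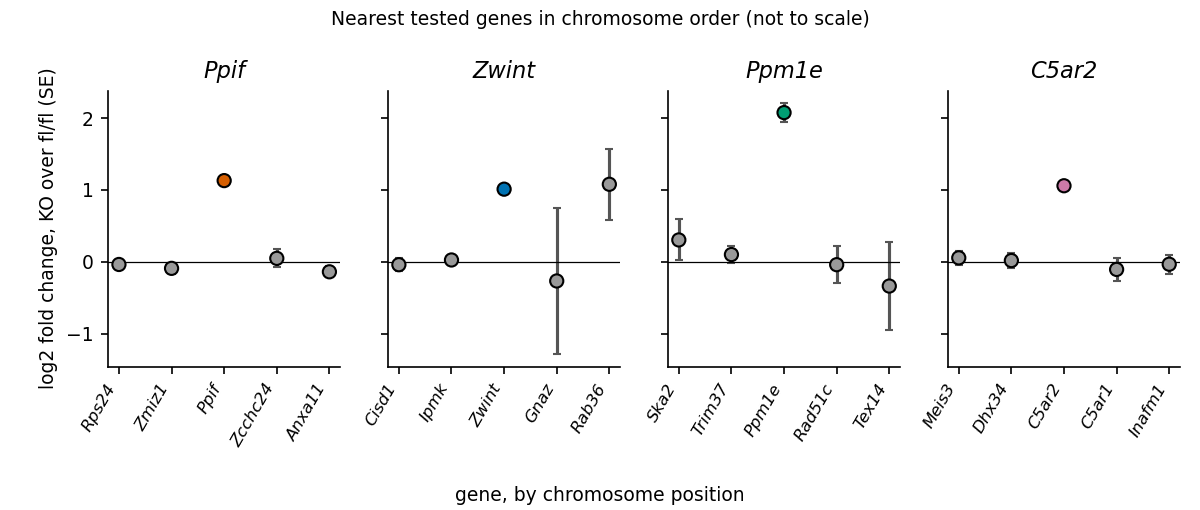
Log2 fold change, KO over fl/fl, with its SE (bars) for each of the 4 genes (coloured) and the 2 nearest tested genes on each side (grey), in chromosome order and not to scale. The grey points of Ppif and C5ar2 lie within 0.14 of 0. The 4 coloured points lie between 1.01 and 2.08, a height that the choice of the genes fixed.

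Genes that work with Zwint were then examined. The outer kinetochore joins chromosomes to the spindle, and the checkpoint genes in the same list delay division until that joining is complete. Of 21 tested genes 1 was called higher and 0 lower, against 11.3% and 11.7% of all tested genes, while 18 had a positive log2 fold change and the median was 0.40. At an unadjusted p under 0.05, 4 were higher and 0 lower. The share of all tested genes at that threshold is not given here, so nothing is read from this count. The one called was Zwilch, a partner of Zw10, at 0.62 (SE 0.23, adjusted p = 0.0364 by DESeq2) by the authors' deposited table. Knl1, the direct partner of Zwint, was at 0.88 (SE 0.49, adjusted p = 0.19 by DESeq2) and Kntc1 at 0.81 (SE 0.50, adjusted p = 0.242 by DESeq2) by the authors' deposited table. Ndc80, which binds microtubules, was at 0.36 (SE 0.26) and Zw10 at 0.03 (SE 0.13) by the authors' deposited table, and neither was called. The standard errors of the list ran from 0.05 to 0.50, against 0.06 for Zwint, whose small error was part of how it was picked. Of the 21 genes, 5 had a match of miR-23, miR-27 or miR-24 in the longest UTR, against 5341 of all 13074 tested genes with a 3' UTR.

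Of 15 tested cyclophilins related to Ppif 1 was called higher and 2 lower, or 20.0% in either direction against 23.0% of all tested genes, with a median log2 fold change of -0.08. That median was -0.02 with centring on the summed group means, where the median of all tested genes was 0.06. Ppic, a cyclophilin of the secretory pathway, was called higher at 0.94 (SE 0.22, adjusted p = 0.000398 by DESeq2) by the authors' deposited table. Ppib, of the endoplasmic reticulum, was called lower at -0.33 (SE 0.10, adjusted p = 0.0106 by DESeq2) by the authors' deposited table. Ppid was also called lower, at -0.27 (SE 0.08, adjusted p = 0.00945 by DESeq2) by the authors' deposited table. Its call was lost when fold changes were centred on the summed group means. Ppia, the abundant cytosolic cyclophilin, was at -0.08 (SE 0.06, adjusted p = 0.38 by DESeq2) by the authors' deposited table. How reads shared with near-identical copies of Ppia were assigned is not known here, so its value is uncertain.

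Proteins proposed to form or regulate the permeability pore, together with the mitochondrial calcium uniporter, had 2 of 21 genes called higher and 4 lower, or 28.6% in either direction against 23.0% of all tested genes. The members called higher were Slc25a4, an adenine nucleotide carrier, at 0.22 (SE 0.06, adjusted p = 0.00345 by DESeq2) and Trap1, a mitochondrial chaperone that binds cyclophilin D, at 0.19 (SE 0.06, adjusted p = 0.00689 by DESeq2) by the authors' deposited table. Mcub, which restrains the uniporter, was lower at -0.67 (SE 0.12, adjusted p = 5.49e-07 by DESeq2) by the authors' deposited table. Tspo, of the outer membrane, was lower at -0.31 (SE 0.07, adjusted p = 0.00035 by DESeq2) by the authors' deposited table. Vdac3, a pore of the same membrane, was at -0.24 (SE 0.07, adjusted p = 0.00492 by DESeq2) by the authors' deposited table, a call lost with centring on the summed group means. Atp5o, the ATP synthase subunit that cyclophilin D binds, was at -0.12 (SE 0.06), Mcu, the uniporter itself, at -0.14 (SE 0.07), and Slc25a5 at 0.10 (SE 0.05) by the authors' deposited table. None of these 3 was called, although Slc25a5 passed as higher with fold changes centred on either scale.

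**Figure D5:**
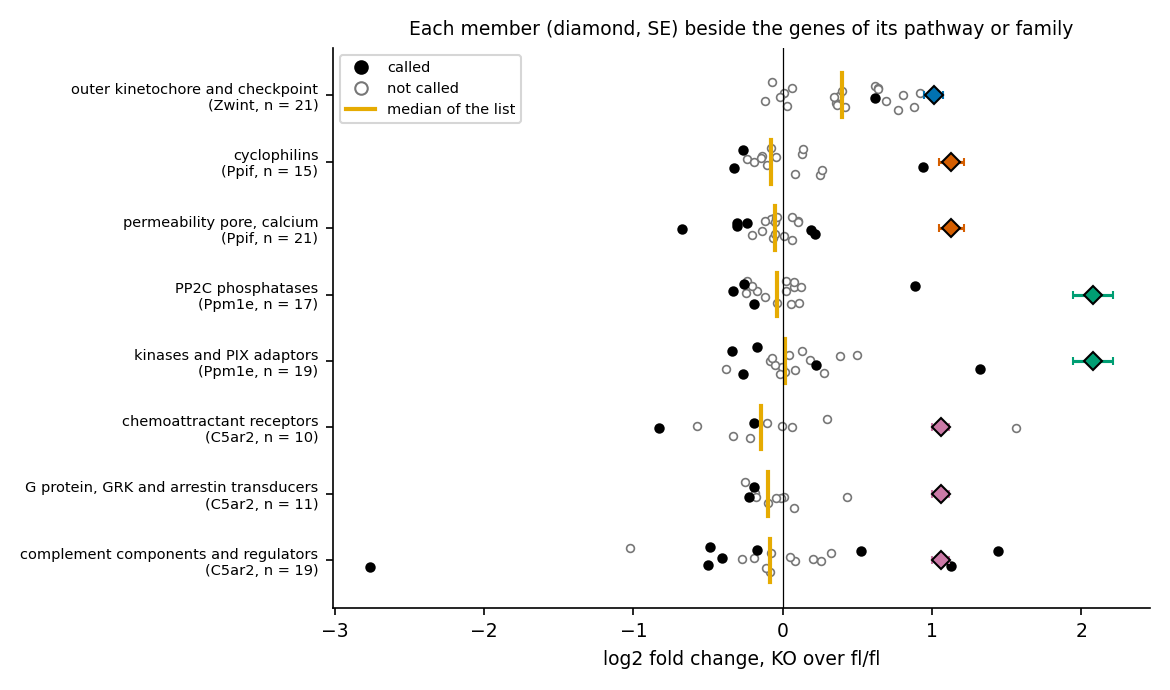
Log2 fold change, KO over fl/fl, of the tested genes in 8 lists of related genes (filled points called at an adjusted p under 0.05, open points not called, gold bars medians), with the gene each list belongs to as a diamond with its SE. The list medians run from -0.15 to 0.40. The diamonds lie at 1.01 to 2.08, a place that the choice of the genes fixed.

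Among PP2C phosphatases, the family of Ppm1e, 1 of 17 tested genes was called higher and 3 lower, or 23.5% in either direction against 23.0% of all tested genes. The one called higher was Phlpp2, which dephosphorylates AKT and has a miR-27 match, at 0.89 (SE 0.09, adjusted p = 2.92e-22 by DESeq2), a 1.85-fold difference, by the authors' deposited table. Ppm1f, also called POPX2 and the closest relative of Ppm1e, was at 0.06 (SE 0.06, adjusted p = 0.531 by DESeq2) by the authors' deposited table. Ppm1a, which also has a miR-27 match, was at -0.12 (SE 0.05, adjusted p = 0.051 by DESeq2) by the authors' deposited table. It passed as lower among genes with a mean of at least 50. Pdp1, a phosphatase of pyruvate dehydrogenase, was called lower at -0.33 (SE 0.10, adjusted p = 0.011 by DESeq2) by the authors' deposited table. Pptc7 at -0.19 (SE 0.07) and Ppm1m at -0.26 (SE 0.09) were called lower by the authors' deposited table, and lost their calls under centring on the median and on the summed group means. The median of this family, -0.04, turned to 0.03 under centring on the summed group means, where the median of all tested genes was 0.06.

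The next list held kinases that Ppm1e can act on and the PIX adaptors that bring it to PAK. It also held non-catalytic AMPK subunits (Prkab1, Prkab2, Prkag1, Prkag2) and Git1 and Git2. Of its 19 tested genes 2 were called higher and 3 lower, or 26.3% against 23.0% of all tested genes, with a median log2 fold change of 0.01. The shares in these 4 lists, from cyclophilins to kinases, were near that of all tested genes. Pak2, which has a miR-23 match, was called higher at 0.22 (SE 0.08, adjusted p = 0.0261 by DESeq2) by the authors' deposited table. Pak1 was called lower at -0.26 (SE 0.10, adjusted p = 0.0306 by DESeq2) by the authors' deposited table, a call lost under centring on the median and on the summed group means. Prkaa2, an AMPK catalytic subunit gene with low counts and matches of miR-23 and miR-24, was at 1.32 (SE 0.36, adjusted p = 0.00271 by DESeq2) by the authors' deposited table. Its mean of 49.5 is just under the filter of 50 that removes it. Prkaa1, the more common AMPK subunit in macrophages, was at 0.08 (SE 0.06, adjusted p = 0.356 by DESeq2) by the authors' deposited table. Camk1 was called lower at -0.34 (SE 0.08, adjusted p = 0.000313 by DESeq2) by the authors' deposited table. Camk1d, with matches of miR-27 and miR-24, was called lower at -0.17 (SE 0.07, adjusted p = 0.049 by DESeq2) by the authors' deposited table. That call was lost with no filter on the mean and under both centrings. Arhgef7, a PIX adaptor with a miR-24 match, was at 0.38 (SE 0.15, adjusted p = 0.0528 by DESeq2) by the authors' deposited table. It passed as higher with a mean of at least 50 and under both centrings.

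Of 10 tested chemoattractant receptor genes, the class C5ar2 belongs to, 0 were called higher by DESeq2 and 2 lower, or 20.0% in either direction against 23.0% of all tested genes. At an unadjusted p under 0.05 by DESeq2, 3 were lower and 0 higher, and the median log2 fold change was -0.15. That median was -0.09 with centring on the summed group means, where the median of all tested genes was 0.06. C3ar1, the receptor of C3a, was called lower at -0.19 (SE 0.05, adjusted p = 0.00145 by DESeq2) by the authors' deposited table. Ccrl2, which binds the chemoattractant chemerin, was called lower at -0.83 (SE 0.19, adjusted p = 0.000131 by DESeq2) by the authors' deposited table. Of 11 genes for G proteins, GRKs and arrestins, 0 were called higher by DESeq2 and 2 lower, or 18.2% in either direction. Neither share of calls was far from that of all tested genes. At an unadjusted p under 0.05 by DESeq2, 6 of these 11 were lower and 0 higher. The share of all tested genes at that unadjusted threshold is not given here, so nothing is read from either unadjusted count. The median log2 fold change of the 11 was -0.10, and it was -0.03 with centring on the summed group means. Gnai2, the inhibitory G protein that C5ar1 uses, was lower at -0.23 (SE 0.06, adjusted p = 0.00173 by DESeq2) by the authors' deposited table. Gnb2 was at -0.19 (SE 0.06, adjusted p = 0.00836 by DESeq2) by the authors' deposited table, a call lost with centring on the summed group means. Arrb2, an arrestin that C5ar2 binds, was at -0.18 (SE 0.09, adjusted p = 0.122 by DESeq2) by the authors' deposited table.

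Complement components and regulators had 3 of 19 tested genes called higher and 5 lower, or 42.1% in either direction against 23.0% of all tested genes. Cd55, which restrains complement on the cell surface, was higher at 1.13 (SE 0.20, adjusted p = 5.59e-07 by DESeq2) by the authors' deposited table. Its longest UTR held no match of miR-23, miR-27 or miR-24. The same held for Zwilch, Ppic, Slc25a4 and Trap1 among the named genes called higher, while Phlpp2, Pak2 and Prkaa2 had a match. Vsig4, a complement receptor of tissue macrophages, was lower at -2.77 (SE 0.48, adjusted p = 2.81e-07 by DESeq2) by the authors' deposited table. Itgb2, the shared beta chain of complement receptors 3 and 4, was lower at -0.50 (SE 0.07, adjusted p = 1.01e-10 by DESeq2) by the authors' deposited table. Cr1l, a membrane regulator with a miR-27 match, was lower at -0.41 (SE 0.07, adjusted p = 1.56e-07 by DESeq2) by the authors' deposited table. C3, the source of C3a, was at 0.26 (SE 0.17, adjusted p = 0.277 by DESeq2) by the authors' deposited table.

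Markers of the labelled cell type and of other cells were measured beside these genes, and their counts stand against 11.3% of all tested genes called higher and 11.7% lower. Of 10 macrophage markers, all present, 1 was called higher and 5 lower, and their summed derived mean normalized count was 569837 in KO cells and 639133 in fl/fl cells. Of 13 measured fibroblast and stromal markers 11 were called higher and 0 lower, with a median of 1.86 on the log2 scale and a summed count of 6926 in KO cells and 1889 in fl/fl cells. The standard errors of these 13 ran from 0.18 to 0.68, against 0.06 to 0.13 for Ppif, Zwint, Ppm1e and C5ar2. The small errors of those 4 genes were part of how they were picked, so nothing is read from this gap. Endothelial markers had 2 called higher and 1 lower of 4, and mast cell and basophil markers 1 higher and 0 lower of 2. Dendritic, lymphoid and erythroid markers had 0 called by DESeq2 of 3, 4 and 1. Of the neutrophil markers, S100a8 at -0.02 (SE 0.27) and Cxcr2 at 0.21 (SE 0.39) by the authors' deposited table were tested and not called. Vamp5 was matched to the listed marker Camp through a shared alias, so it is left out. At an unadjusted p under 0.05, 1 lymphoid marker, Cd79b, was higher, and 0 of the neutrophil, dendritic and erythroid markers passed. For these unadjusted counts the share of all tested genes is not given. The part of stromal RNA in the rises of the 4 genes was not tested.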

How the data were processed

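Gene-level values of 8 poly(A) RNA-seq libraries, 4 KO and 4 fl/fl by the titles in the labels, were compared by the authors. FastQC, cutadapt, Salmon and DESeq2 with mm10 are named per the submitters' processing notes; the sources used here give no versions, settings or roles. Per the file headers, the authors' deposited signal is the mean normalized count, the log2 fold change comes with its standard error, the score is the Wald statistic, and p-values and adjusted p-values are the authors'. The 8 deposited columns of values per library match no sample label and were not used, so the planned limma fits were not run and depth is unknown. Calls used the authors' adjusted p under 0.05.

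Symbols were matched to GENCODE M21 (15187 genes, 95.8%), and the longest 3' UTR of each gene was searched in Python 3.11.15 with pandas 2.3.3. The steps were tested on simulated data. The 4 genes, the 8 gene lists and the 8 marker lists were chosen with earlier results of these data known. Named genes are the 4 genes, fixed partners whatever their value, up to 4 further called genes per list with the smallest adjusted p, the 2 nearest tested neighbours on each side, Lyz2 and Sesn2. Alternatives changed the filter, threshold, reference distribution, scaling and kind of match.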

Additional observations from a re-analysis of the deposited data

How the results depend on the processing

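Under the 3 centrings, log2 fold changes ran from 1.17 to 1.19 for Ppif, 1.05 to 1.07 for Zwint, 2.11 to 2.14 for Ppm1e and 1.09 to 1.12 for C5ar2, against deposited values of 1.13, 1.01, 2.08 and 1.06. The counts of calls moved more. At an adjusted p under 0.01 there were 1047 genes higher and 1009 lower, with 0 kinetochore genes, 1 PP2C phosphatase and 2 kinase or PIX genes called, and 16.2% of genes with a match. With a t distribution with 6 degrees of freedom in place of the normal, 221 genes were higher and 127 lower and 3.20% of genes with a match were called. Under it 1 PP2C phosphatase, 3 complement genes and 0 genes of each of the other 6 lists were called, and 22 of the 26 named list genes that were called lost the call. Centring on the median of genes with a mean of at least 100 left 2 PP2C phosphatases called and gave 1990 genes higher and 1230 lower, so that 61.8% of calls were higher in place of 49.1%. Centring on the summed group means, chosen after seeing the data, gave 2339 higher and 960 lower (70.9% higher), 5 cyclophilins, 1 G protein or arrestin gene and 27.4% of genes with a match. As deposited, calls in either direction made up 26.0% of genes with a match, beside 23.0% for all tested genes. The share for genes with a match was 24.0% with no filter and 28.1% at a mean of at least 50. Under the alternatives these shares are not set beside a percentage for all tested genes, so no excess is read from them. Counted as 8-nucleotide matches alone, the 4 genes had 3 matches in place of 8. The planned limma fits, pseudocounts and fits leaving out a library were not run, since they need values of labelled libraries. No paired analysis was possible because no column of single libraries names a genotype or a sample. Depth per library is unknown here.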
